A study of Sus scrofa with 6 samples.

Results

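The proteasome genes of porcine 2-cell embryos were examined as the rows of the deposited abundance table whose gene name begins with PSMA, PSMB, PSMC, PSMD, PSME, PSMF or PSMG followed by a digit. This rule took 38 of 17678 rows. They cover the rings of the core, the ATPase and other subunits of the base, the lid, the assembly chaperones and the activators and inhibitor. One of them, PSMC3IP, is no proteasome subunit but a factor of meiotic recombination, and it is kept only because its name fits the rule. A further 6 subunit or chaperone genes have no name in the table and were recognised by their identifier, namely PSMA2, PSMA5, PSMD4, PSMD7, PSMD9 and PSME2. No row was found by name or identifier for PSMB5, PSMB11, PSMG1, PSMG2 and PSMG4, which were not analysed here.

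Polyadenylated RNA was sequenced from embryos of 2 groups with 3 libraries each, and each library pooled 20 embryos collected 32 h after parthenogenetic activation. KD embryos came from MII oocytes injected with 3 siRNAs against SIN3A, the scaffold of a histone deacetylase complex, and NC embryos from oocytes injected with non-specific siRNA. All oocytes came from the ovaries of peripubertal Landrace, Yorkshire and Duroc crossbreeds, were matured in vitro and were then activated with electric pulses, cycloheximide and cytochalasin B, so that both groups lack a paternal genome. The comparison asks which transcripts differ in abundance after SIN3A depletion, before the 2 groups differ in appearance.

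SIN3A itself lay at 37361, 33964 and 32404 in the NC libraries and at 3271, 1079 and 4173 in the KD libraries, in normalized abundance units. The KD mean was 8.22% of the NC mean, with a log2 fold change of -3.81 (SE 0.31, adjusted p = 8.4e-06, limma with Benjamini-Hochberg correction over all genes; 0.423 without the variance trend). Between 7800000 and 13000000 reads were estimated for the NC libraries and between 10200000 and 15800000 for the KD libraries, and 1 read was worth 0.721 to 1.46 abundance units. Of 6 oocyte and early embryo markers 5 were found, and their summed values were 25463 to 27345 in NC and 26844 to 30088 in KD. The 5 cumulus and granulosa markers found summed to 5.23 to 9.93 in NC and 6.16 to 24.9 in KD, and the 4 leukocyte markers to 14.6 to 39.0 and 18.2 to 31.7, so that both lists lay near 0.

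The proteasome is the protease that degrades proteins marked with ubiquitin chains. Its core is a barrel of alpha rings, which gate the entrance, and beta rings, which hold the catalytic sites, and the regulatory particle on its ends consists of a base, whose ATPases unfold substrates, and a lid, which removes ubiquitin. In oocytes and cleaving embryos it is known for the destruction of cyclin B at the exit from each division and for the removal of maternal proteins.

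SIN3A knockdown was not followed by a detectable shift of the proteasome genes. Of the 38 members, 34 reached an average of 10 across the libraries and were tested. By limma on log2(value + 1), 0 of these 34 rose and 0 fell at an adjusted p below 0.05, where 0.159% of the 11986 tested genes were called. At an unadjusted p below 0.05 there was 1 member, PSMB7, beside 4.61% of all tested genes. The log2 fold changes lay above 0 in 16 members and below 0 in 18, and ran from -0.27 in PSMB3 to 0.82 in PSMB7. Their median was -0.01 on the log2 scale, beside 0.003 for all tested genes. The adjusted p of every tested member was 0.997 or above after rounding. The 95% confidence interval lay within 1 log2 unit of 0 in 31 of the 34 members and within 0.5 units in 21. The 3 members whose interval passed 1 log2 unit from 0 were PSMB7, PSMC6 and PSMG3, all of low abundance. The interval of PSMA8, from -0.98 to 0.88, stayed within this bound but was wider than that of PSMB7. All libraries pooled the same number of embryos of the same stage. The values were normalized between libraries, so that a change in total RNA per embryo would not show in these fold changes.

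**Figure D1:**
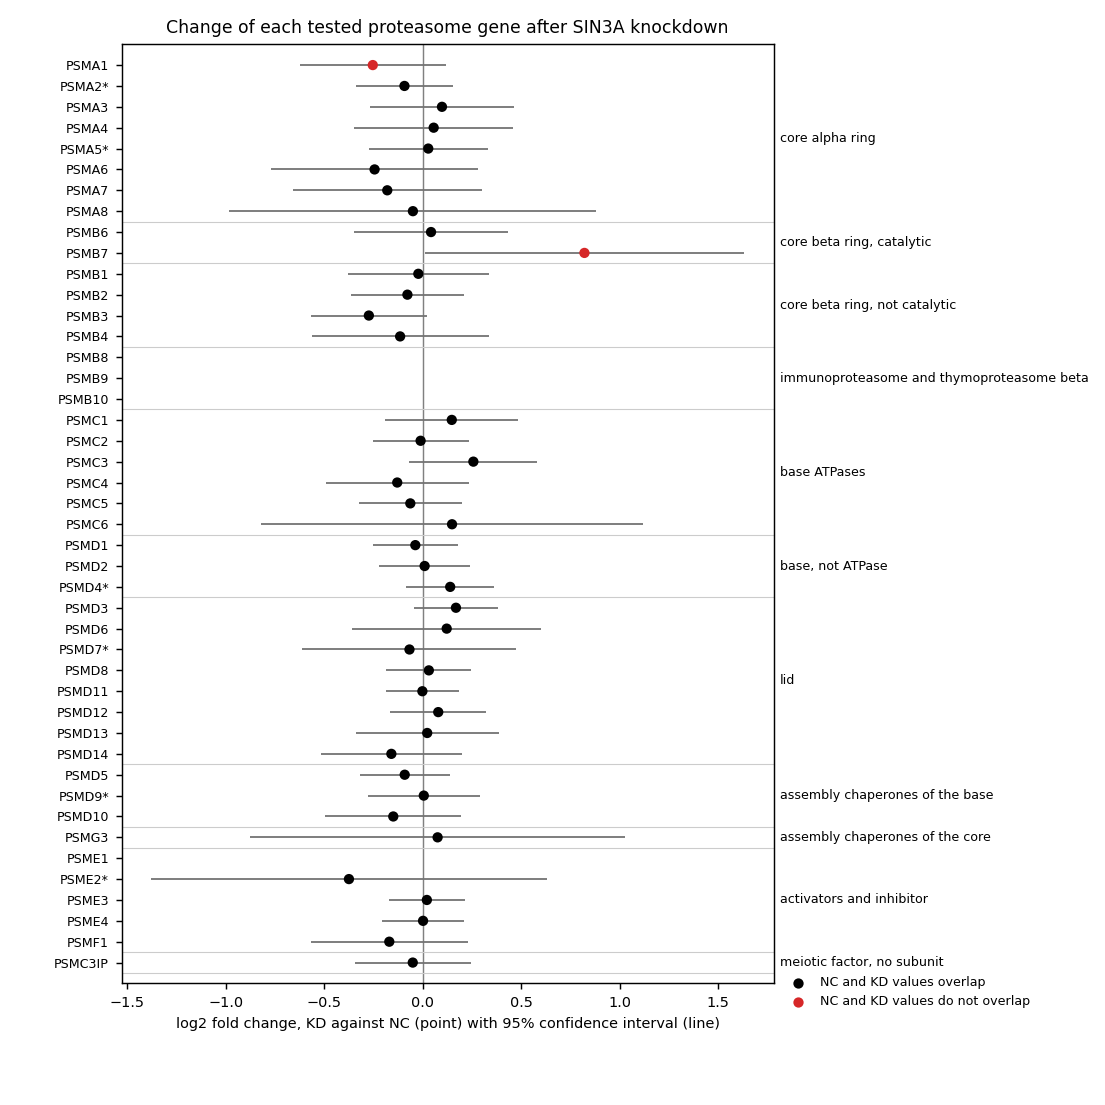
Log2 fold change of KD against NC on the log2(value + 1) scale (x axis) for each proteasome gene with a mean of at least 10, ordered by class, with points for the estimate, lines for the 95% confidence interval and an asterisk on genes recognised by identifier only. Red points mark the genes whose 3 NC and 3 KD values do not overlap, PSMA1 at -0.25 and PSMB7 at 0.82, and rows without a point were below the minimum.

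The levels of the members differed far more between genes than between groups. Divided by the length of the longest RefSeq mRNA, the NC mean of the tested members ran from 12.1 per kb in PSMC6, an ATPase of the base, to 2787 per kb in PSMD3, a scaffold subunit of the lid, which is a 231-fold range. The transcript models that the authors quantified against were not examined here, so that a short or missing model behind the low values of PSMC6, PSMB7 and PSMA8 was not tested, and the levels of these 3 genes carry that doubt throughout. The median member stood at the percentile 71.9 of all tested genes with a length. The median coefficient of variation among the NC libraries was 10.5% in the members and 13.1% in all tested genes. The lid subunit PSMD11 varied least among the NC libraries, with 1913, 1934 and 1881. It lay at 1888, 1972 and 1866 in KD, and its 6 values were all within a narrow band. PSMC6 varied most of the tested members among the NC libraries, with 31.2, 21.0 and 8.98, and lay at 17.1, 27.1 and 17.9 in KD. Its log2 fold change was 0.15 with an interval from -0.82 to 1.12, one of the widest of all members.

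**Figure D2:**
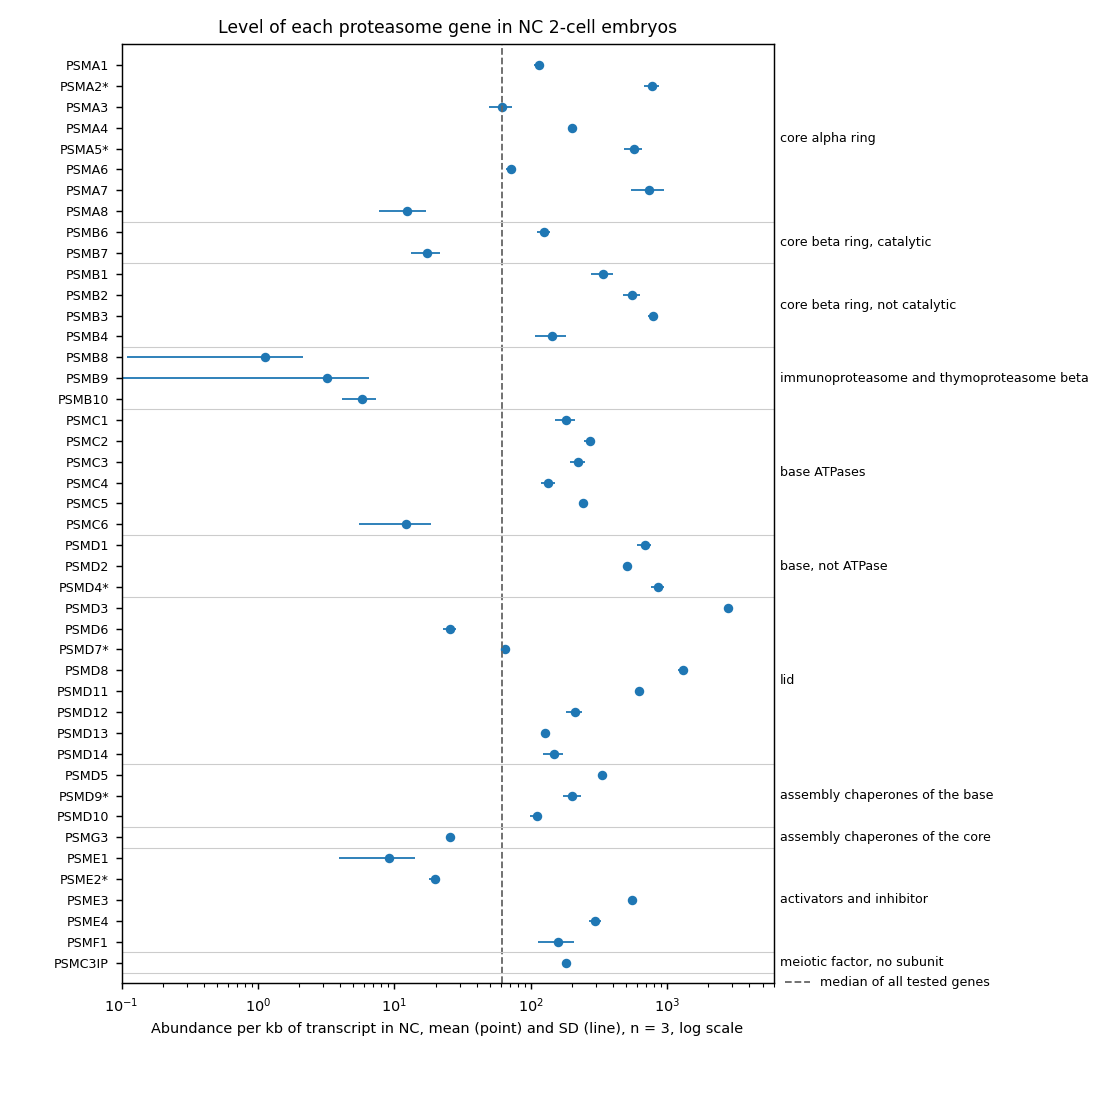
NC abundance per kb of the longest RefSeq mRNA (x axis, log scale) of every proteasome gene, with points for the mean and lines for the SD of 3 libraries, and a dashed line at the median of all tested genes, 61.4 per kb. PSMD3 lies highest at 2787 per kb, the immunoproteasome genes and PSME1 lie lowest below 10 per kb, and the line of PSMB9 reaches below 0 and stops at the edge of the axis.

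In the alpha ring, 2 of the 6 tested members had a log2 fold change above 0 and 4 below 0. PSMA1 lay at 130, 150 and 146 in NC and at 128, 122 and 107 in KD. All 3 KD values were below all 3 NC values, which was so in 4.94% of all tested genes. Its log2 fold change was -0.25 (SE 0.17, 95% interval -0.62 to 0.12), the largest of the ring, and the exact two-sided permutation p of 0.1 is the smallest that 3 against 3 libraries can give. PSMA7 lay at 678, 608 and 994 in NC and at 639, 435 and 1015 in KD, with replicate 3 the highest of both groups. PSMA4 behaved alike in the KD libraries, where it lay at 302, 201 and 395, whereas its NC values of 288, 260 and 285 were close together. PSMA8, an alpha subunit known from the testis, lay at 13.7, 17.8 and 28.3 in NC and at 14.7, 13.9 and 30.2 in KD. Per kb, PSMA7 stood at 738 ± 200 (SD, n = 3) and PSMA2 at 772 ± 96.6, which did not differ beyond their spread, and the lowest listed value of the ring was that of PSMA8 at 12.3 ± 4.66, with its transcript model unchecked. PSMA3 and PSMA6 stood at 61.3 ± 11.7 and 70.9 ± 5.11 per kb, again within their spread.

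Of the catalytic beta subunits, PSMB6 carries the caspase-like and PSMB7 the trypsin-like activity. PSMB7 lay at 16.8, 20.6 and 12.6 in NC and at 31.2, 38.5 and 21.7 in KD. All 3 KD values were above all 3 NC values, which was so in 4.85% of all tested genes, and the lowest KD value was close to the highest NC value. The KD mean was 183% of the NC mean, with a log2 fold change of 0.82 (SE 0.38, 95% interval 0.01 to 1.63), an unadjusted p of 0.047 and an adjusted p of 0.997 from limma. Without each library in turn, the log2 fold change ran from 0.64 to 1.04. PSMB6, a subunit of the same ring that is built in at the same copy number, lay at 147, 167 and 134 in NC and at 174, 170 and 122 in KD. The groups overlapped, and its log2 fold change was 0.04 (SE 0.18, 95% interval -0.35 to 0.43). Per kb of transcript, the NC level of PSMB6 was 124 ± 13.6 (SD, n = 3) and that of PSMB7 17.3 ± 4.13, the latter with its transcript model unchecked.

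The beta subunits without a catalytic site all had log2 fold changes below 0, and none of the 4 passed the test. PSMB3 lay at 603, 520 and 541 in NC and at 545, 477 and 370 in KD. Its 2 lower KD values were below every NC value and the KD replicate 1 value was above 2 of them. Its log2 fold change was -0.27 (SE 0.14, 95% interval -0.57 to 0.02). This was the lowest of all tested members taken by the name rule with all 6 libraries. It ran from -0.40 without KD replicate 1 to -0.12 without KD replicate 3. PSMB1, PSMB2 and PSMB4 had log2 fold changes of -0.02, -0.08 and -0.11. Per kb, PSMB3 was the highest of them with 788 ± 61.5 (SD, n = 3) in NC, and PSMB4 the lowest with 143 ± 36.9.

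The beta ring was low in replicate 3 of both groups. All 6 tested beta members had their lowest KD value in KD replicate 3, and 5 of the 6 had their lowest NC value in NC replicate 3, the exception being PSMB3. Both held for 5 of 6 members (83.3%), for 13 of all 34 tested members (38.2%) and for 13.7% of all tested genes. The median deviation from the group mean of the 6 beta members was -0.23 log2 units in NC replicate 3 and -0.31 in KD replicate 3, beside 0.004 and 0.001 for all tested genes. The alpha ring was mixed. Of its 6 tested members, PSMA7 and PSMA8 (33.3%) were highest in replicate 3 of both groups, and PSMA6 (16.7%) was lowest there in both. The cytosolic ribosomal protein genes showed a share much like that of the proteasome members, with 13 of 35 (37.1%) lowest in replicate 3 of both groups. These shares are given as descriptions and were not tested.

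**Figure D3:**
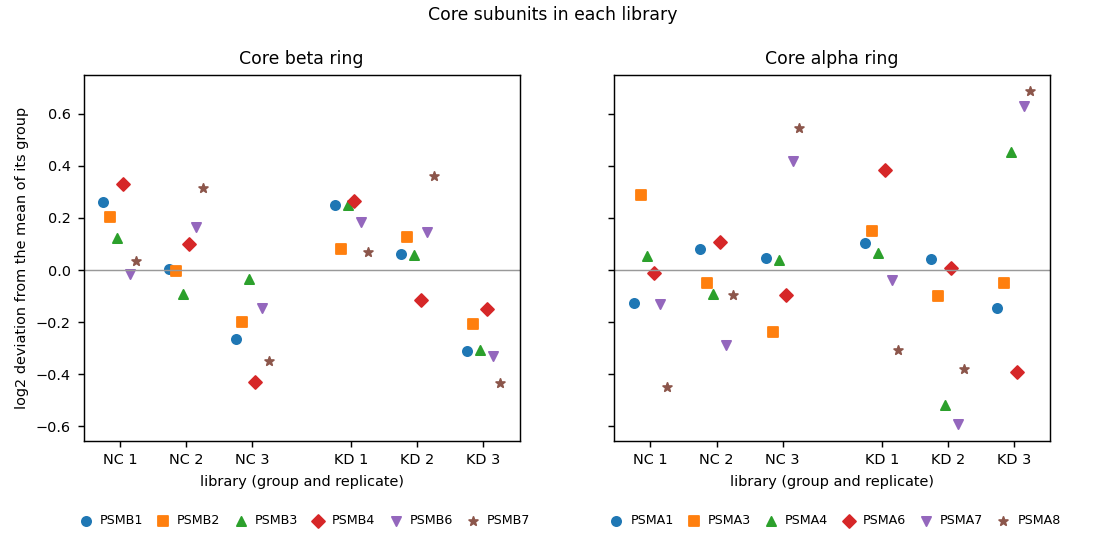
Deviation of each tested core subunit from the mean of its own group, in log2 units (y axis), in the 3 NC and 3 KD libraries (x axis), with 1 symbol per gene. The beta ring members lie below 0 in NC 3 and KD 3, with medians of -0.23 and -0.31. The alpha ring is mixed there, with PSMA4, PSMA7 and PSMA8 above 0 in both, PSMA3 and PSMA6 below 0 in both, and PSMA1 on either side.

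The inducible beta subunits PSMB8, PSMB9 and PSMB10, which replace the catalytic subunits in the immunoproteasome of leukocytes and interferon-treated cells, were all below the minimum mean of 10 and were not tested. PSMB8 lay at 1.69, 0 and 2.38 in NC and at 0, 0 and 3.92 in KD. PSMB9 lay at 6.28, 1.47 and 0.847 in NC and at 3.90, 7.23 and 2.18 in KD. PSMB10 lay at 5.27, 7.40 and 4.24 in NC and at 6.94, 0.166 and 7.92 in KD. These values correspond to a few reads per library, and the groups overlapped for each gene. Per kb, PSMB9 stood at 3.20 ± 3.32 (SD, n = 3) in NC, against 124 for PSMB6, which it replaces. PSMB10 stood at 5.74 ± 1.64, against 17.3 for PSMB7, whose transcript model was unchecked.

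The 6 ATPases of the base, which form the unfolding ring, had log2 fold changes between -0.13 in PSMC4 and 0.26 in PSMC3, with 3 above and 3 below 0. PSMC3 lay at 328, 327 and 406 in NC and at 447, 499 and 335 in KD. KD replicate 3 fell among the NC values, and the log2 fold change was 0.26 (SE 0.15, 95% interval -0.07 to 0.58). Their NC levels per kb lay, for 5 genes, from 134 ± 15.5 (SD, n = 3) in PSMC4 to 270 ± 22.5 in PSMC2, and PSMC6 was listed at 12.1 ± 6.57, with its transcript model unchecked. PSMC2 and PSMC5, at 270 ± 22.5 and 243 ± 13.7 per kb, did not differ beyond their spread.

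The other base subunits bind ubiquitin and its carriers. PSMD1, a large scaffold, lay at 2515, 1995 and 2134 in NC and at 2010, 2104 and 2345 in KD, with overlapping groups and a log2 fold change of -0.04 (SE 0.10, 95% interval -0.25 to 0.18). PSMD2 had a log2 fold change of 0.01. PSMD4, the ubiquitin receptor recognised by its identifier, lay at 1315, 1149 and 1070 in NC and at 1383, 1306 and 1198 in KD. The ranges overlapped, and its log2 fold change was 0.14 (SE 0.11, 95% interval -0.08 to 0.36). The median level per kb of these 3 genes was 3.31 to 4.51 times the median of the 14 core genes in each of the 6 libraries, whereas the median of the 8 lid genes was 0.946 to 1.26 times that of the core.

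In the lid, 5 of the 7 tested members had log2 fold changes above 0 and 2 below 0. PSMD3 lay at 5721, 6355 and 6091 in NC and at 7615, 7198 and 5747 in KD. Its KD replicates 1 and 2 were above all NC values and KD replicate 3 among them, and the log2 fold change was 0.17 (SE 0.10, 95% interval -0.04 to 0.38). PSMD14, the metalloprotease that cuts ubiquitin chains off substrates, lay at 238, 193 and 272 in NC and at 179, 247 and 204 in KD. The groups overlapped, with a log2 fold change of -0.16 (SE 0.17, 95% interval -0.52 to 0.20). The NC levels per kb spread from 25.5 ± 2.93 (SD, n = 3) in PSMD6 to 2787 ± 147 in PSMD3, a 109-fold range within one subcomplex. Below PSMD3 came PSMD8 at 1298 ± 99.4 and PSMD11 at 622 ± 8.84, whereas PSMD13 and PSMD14, at 127 ± 3.39 and 148 ± 24.9, did not differ beyond their spread.

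**Figure D4:**
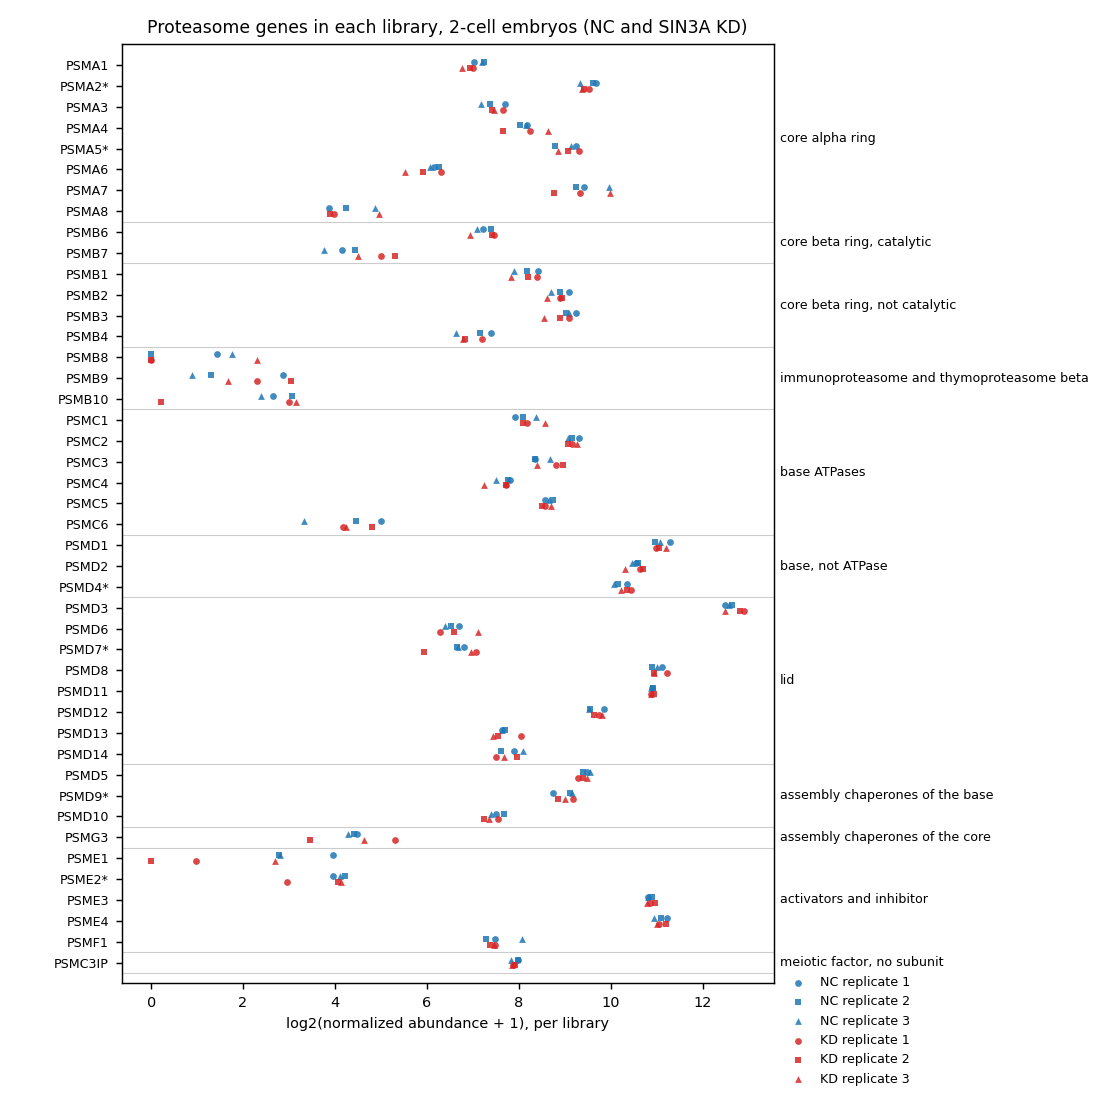
Abundance of each proteasome gene in each library as log2(value + 1) (x axis), with blue symbols for NC, red symbols for KD, a symbol shape per replicate number and an asterisk on genes recognised by identifier only. The NC and KD symbols lie side by side for nearly every gene, and the rows of PSMA1, PSMB7 and PSME1 are those where the colours separate.

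Among the assembly chaperones of the base, PSMD10 lay at 179, 203 and 167 in NC and at 185, 149 and 162 in KD, with a log2 fold change of -0.15 (SE 0.16, 95% interval -0.49 to 0.20), and PSMD5 had one of -0.09. PSMG3, a chaperone of the core, lay at 21.3, 20.4 and 18.4 in NC and at 38.4, 10.03 and 23.8 in KD, where the KD values enclose those of NC. Its log2 fold change of 0.08 had an interval from -0.88 to 1.03.

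The activators differed strongly in level. PSME3, the nuclear activator, lay at 554 ± 15.7 per kb (SD, n = 3) in NC and PSME4, the large activator known for acetylated histones in germ cells, at 296 ± 29.8. Their log2 fold changes were 0.02 (95% interval -0.17 to 0.21) and 0.003 (95% interval -0.21 to 0.21), among the narrowest intervals of all members. PSME1, a subunit of the interferon-inducible activator, was below the minimum and not tested. It lay at 14.6, 5.86 and 5.97 in NC and at 0.975, 0 and 5.48 in KD, so that the groups did not overlap although the closest values, 5.86 and 5.48, were nearly equal. Its partner PSME2, recognised by identifier, lay at 14.6, 17.5 and 16.2 in NC and at 6.81, 15.8 and 16.4 in KD. The log2 fold change of PSME2 was -0.37 (SE 0.48, 95% interval -1.38 to 0.63), lower than that of any tested member taken by the name rule. The inhibitor PSMF1 lay at 177, 156 and 267 in NC and at 179, 166 and 175 in KD. NC replicate 3 was the highest value and the others overlapped, and the log2 fold change was -0.17 (SE 0.19, 95% interval -0.57 to 0.23).

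Of 30 other genes of the pathway, which code for bound cofactors, shuttle factors, ubiquitin, its activating enzymes and regulators of proteasome transcription, 27 were found and tested. Of these, 0 rose and 1 fell at an adjusted p below 0.05, beside the same 0.159% of all tested genes. The list was chosen with earlier results of these data known, so that this share is not read as a result about the list. The gene that fell was VCP, the unfoldase that pulls ubiquitinated proteins out of complexes and hands them to the proteasome. VCP lay at 143, 217 and 148 in NC and at 48.5, 25.3 and 61.9 in KD, without overlap, and its log2 fold change was -1.95 (SE 0.29, adjusted p = 0.0047, limma). Without the variance trend its adjusted p was 0.525, and the call was lost. The other 26 had log2 fold changes between -0.25 in UBA6, a ubiquitin-activating enzyme, and 0.39 in UBQLN4, a shuttle factor. UBA6 lay at 210, 199 and 255 in NC and at 197, 144 and 224 in KD (SE 0.18, 95% interval -0.63 to 0.13). UBQLN4 lay at 22.5, 10.9 and 23.9 in NC and at 19.7, 39.9 and 17.5 in KD (SE 0.44, 95% interval -0.53 to 1.31). For both genes the groups overlapped, and without KD replicate 2 the log2 fold changes were -0.07 and 0.04, respectively. TXNL1, a thioredoxin-like protein bound to the regulatory particle, was the other gene without overlap. It lay at 1372, 1390 and 1347 in NC and at 1221, 1169 and 1336 in KD, where the closest values, 1347 and 1336, were nearly equal. Its log2 fold change was -0.14 (SE 0.10, 95% interval -0.35 to 0.06). VCP and TXNL1 were thus 2 of 27 genes lower in KD without overlap, which was so in 4.94% of all tested genes. NFE2L1, the transcription factor that induces proteasome genes when the protease is impaired, had a log2 fold change of 0.06 (95% interval -0.16 to 0.28). AKIRIN2, the importer of proteasomes into the nucleus, had one of -0.05 (95% interval -0.23 to 0.13) and an NC level of 4763 ± 356 per kb (SD, n = 3), above every proteasome gene with a row.

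The start regions of the members were searched for 3 short motifs, which the rule did not use. In the 300 bases around the start of the longest RefSeq mRNA (250 before and 50 after, Sscrofa11.1), CCGGAAG, the core sequence that ETS factors bind, was present on either strand in 16 of 38 members (42.1%), PSMC3IP among them. It was present in 14.6% of the windows of tested genes and in 10.2% of all 20638 windows, and in 41.9% of the 43 windows of cytosolic ribosomal protein genes. CCAAT was present in 16 of 38 members (42.1%) and in 35.0% of all windows. TGACNNNGC, the core of the antioxidant response element that NFE2L1 and NFE2L2 bind, was present in 5 of 38 members (13.2%) and in 12.0% of all windows. Each motif was counted separately, on both strands, and motifs may share an end base. A match describes these letters and not a bound site. PSMA1 and PSMB7 are the tested members whose groups did not overlap. PSMB3 is the tested member of the name rule with the lowest log2 fold change with all 6 libraries. All 3 carry CCGGAAG, shown in capitals in the direction of the gene, at chr2:44740072-44740098 on the plus strand, at chr1:265235422-265235448 and chr1:265235381-265235407 on the minus strand, and at chr12:23357651-23357677 on the minus strand.
PSMA1: cggggaagcgCCGGAAGcctatcgcta
PSMB7, first match: gccggcggcgCCGGAAGtactgggctc
PSMB7, second match: cgcccccgacCCGGAAGtaccttttca
PSMB3: ccaaagtgtcCCGGAAGggtcggcctc
The motif begins at position -20 from the start in PSMA1, at -49 and -8 in PSMB7 and at -51 in PSMB3. These 3 members were picked by their fold changes, which were not called. Among the other carriers, the log2 fold changes were -0.24 in PSMA6, -0.17 in PSMF1, -0.16 in PSMD14, -0.05 in PSMC3IP and -0.02 in PSMB1. They were -0.01 in PSMC2, -0.001 in PSMD11, 0.003 in PSME4 and 0.02 in PSMD13. PSMD12 and PSMG3 had 0.08, and PSMC1 and PSMC6 had 0.15. A relation between the motif and the fold changes was not tested.

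The TGACNNNGC matches are shown for PSMB6 and PSMB7, the catalytic subunits with a row in the table, and for PSMD14, the deubiquitinase of the lid. They lie at chr12:52098142-52098170 on the minus strand, at chr1:265235351-265235379 on the minus strand and at chr15:68107275-68107303 on the plus strand, with the match in capitals. PSMB7 and PSMD14 hold it on the opposite strand, so that the capitals show its reverse complement.
PSMB6: ctaaagagcgTGACGGAGCgctttacgac
PSMB7: gaagatggcgGCTGTGTCAgtgtatgagc
PSMD14: cgggcggcagGCGTTGTCAgtccgggcag
The log2 fold changes of these 3 genes were 0.04, 0.82 and -0.16, and those of the other carriers PSMC5 and PSME4 were -0.06 and 0.003.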

How the data were processed

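The authors assigned reads to Sscrofa11.1 transcripts with Salmon 0.14.1, and deposited a signal per Ensembl gene, the abundance normalized with DESeq2. Most low values, 61.4% to 71.3%, fell within 0.05 of a whole multiple of a library's smallest step, as scaled whole reads would. The others did not, so that the signal is not a plain count, and no count test was run. Genes with a mean of at least 10 were compared with limma 3.58.1 in R 4.3.3 (lmFit, eBayes with a variance trend) on log2(value + 1), with Benjamini-Hochberg adjustment over 11986 genes, after a test on simulated data. Fold changes on this scale understate those of low genes. An exact permutation test was added for single genes. Levels per kb used the longest RefSeq mRNA, known for 86.2% of tested genes. Depth was estimated from the step and limits low genes most.

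Alternatives changed the pseudocount (0.1 or 10), the minimum mean (none or 100), the scaling (TMM-like or quantile), the variance trend (none), the covariates (a replicate block, GC content and length) or left out 1 library. Members and lists were chosen with earlier results of these data known. Genes named in full are those called or without overlap, the catalytic and inducible beta subunits, PSMD4, PSMD14, the largest change per class, the extremes per kb, members below the filter, and the called and 3 most changed associated genes. PSMD11, PSMA4, PSMA7, PSMA8, PSME3, PSME4, NFE2L1, AKIRIN2, TXNL1 and ADRM1 were added after their values were seen. The libraries are labelled as replicates. Whether same-numbered NC and KD libraries share oocytes is not stated, so that p-values measure the spread between these libraries. The spike-in mRNAs mentioned by the labels were not used here, nor were protein sequences.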

Additional observations from a re-analysis of the deposited data

How the results depend on the processing

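No proteasome member was called in any of 17 settings, and the lowest adjusted p of a member was 0.57, for PSMD3 without KD replicate 3 (limma with Benjamini-Hochberg adjustment). Members without overlap numbered 2, but 1 with a mean of at least 100 or quantile normalization and 3 with no filter. They were 2 to 7 without each library, as fewer libraries overlap less. For all genes this was counted in the main setting only. The median log2 fold change of the members ran from -0.04 to 0.03 without each library. Over all genes, 19 calls became 0 without the variance trend, 35 with the GC content and length correction, 56 with this correction and the replicate block, and 11 to 19 without each library, down to 11 without KD replicate 2 and 12 without NC replicate 2 or 3. Without the variance trend the associated genes gave 0 calls, since VCP had an adjusted p of 0.525, and SIN3A kept a log2 fold change of -3.81 with an adjusted p of 0.423. The cause was not tested.

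The sign of small log2 fold changes turned when 1 library was left out. PSMB6 ranged from -0.049 without KD replicate 1 to 0.21, and was -0.031 without NC replicate 3 and -0.030 without KD replicate 2. PSMC6 ranged from -0.32 without NC replicate 3 to 0.52, and was -0.051 without KD replicate 2. PSMD1 ranged from -0.11 to 0.058 without NC replicate 1, and was 0.011 without KD replicate 1. PSMF1 ranged from -0.33 to 0.059 without NC replicate 3. PSMG3 ranged from -0.34 without KD replicate 1 to 0.58, and was -0.0074 without KD replicate 3. Other changes kept their sign but not their size without each library, with -0.29 to -0.045 for PSMD14, 0.14 to 0.42 for PSMC3, 0.088 to 0.29 for PSMD3, -0.23 to -0.072 for PSMD10, -0.40 to -0.12 for PSMB3, -0.39 to -0.068 for UBA6 and 0.037 to 0.61 for UBQLN4. The replicate block gave 26 calls over all genes and 0 among the members, with 2 members, PSMB7 and PSMB3, at an unadjusted p below 0.05. Same-numbered NC and KD libraries correlated at 0.109, 0.111 and 0.087 over all tested genes after subtraction of the group means, and at 0.049, 0.332 and 0.491 over the 34 tested members. Libraries with different numbers correlated at a mean of -0.051 over all tested genes and -0.139 over the members. The means for the same number were 0.103 and 0.290, so that same-numbered libraries deviated more alike. Among the 28 members with a mean of at least 100, the same-number correlations were 0.268, 0.284 and 0.478 for numbers 1, 2 and 3. The value of 0.049 for number 1 was thus not kept once the low genes were left out. In the 6 tested alpha ring members they were 0.70, 0.90 and 0.82, and in the 6 of the beta ring 0.48, 0.62 and -0.21. No label says that a number marks a shared batch, and whether the libraries are paired was not tested. Only the replicate block paired them. Genes under a value of about 30, such as PSMB7, PSMC6 and PSMG3, are limited by depth.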
